A study of Mus musculus with 8 samples.

Results

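Oligodendrocyte precursor cells (OPC) are described here in the paraventricular nucleus of the hypothalamus, the region that starts the hormonal response to stress. Members are the cells that carry the label OPC in the cell type column deposited by the authors: 765 of 35672 cells, or 2.14%, all in 1 of the 33 clusters. The study compared male and female C57BL/6 mice with and without stress, by droplet sequencing of single cells, in 8 libraries. Mice of the baseline cohort were 10 weeks old and were either left unstressed or restrained once for 15 min, labelled ARS for acute restraint. Mice of the second cohort were 11 weeks old and were either left unstressed or restrained in that way at the end of 21 days of chronic mild stress, labelled CMS ARS. Tissue of restrained mice was taken 5 h afterwards. The second cohort is called the CMS cohort here; its controls carry CMS in their titles but an unstressed condition, and were taken as unstressed. Each combination of sex, cohort and exposure was 1 library, and how many mice each holds is not given in the sources used. P-values therefore reflect only how libraries sharing a level of a factor vary, partly pooled over cell types where all types were fitted together.

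OPC still divide in the adult brain and give rise to new oligodendrocytes, the myelin-forming cells. OPC are usually recognised by Pdgfra, the receptor for platelet-derived growth factor that drives their proliferation, and by Cspg4, the proteoglycan NG2 on their surface. A precursor that commits to the lineage leaves the cell cycle, passes through a short intermediate stage (the label COP is commonly used for committed oligodendrocyte precursors, and the deposited table does not spell it out) and becomes an oligodendrocyte that no longer divides. The deposited table gives no expression of single genes, so the label could not be checked against Pdgfra and Cspg4 here. It does give 2 cell cycle scores per cell, named for S phase, when DNA is copied, and for G2 and M phase, when the cell prepares to divide and divides.

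Libraries held 3523 to 5777 cells and 77 to 117 OPC each, and the UMIs (unique molecular identifiers, which count captured RNA molecules) of the OPC summed to 233902 to 333660 per library. Cells of different libraries shared 722 barcodes, which touched 1452 cells (4.07%) and 38 of the 765 OPC (4.97%). Whether any of these are the same cell was not tested.

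OPC were cells of middling depth and middling mitochondrial share. The median OPC had 3006 UMIs (interquartile range 2453 to 3554) and 1812 detected genes, ranking at place 9 of the 17 types for UMIs and at place 7 for genes. The other stages of the lineage were deeper, with a median of 6282 UMIs in the 115 COP and 3465 in the 4435 Oligodendrocytes. AVP neurons, which make vasopressin, had 6141, Mixed_Endothelial cells 5110, and the shallowest type, Neurons_mixed, had 1200. OPC detected more genes than Oligodendrocytes (median 1546) from fewer UMIs.

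Mitochondrial UMIs made up a median of 2.85% of an OPC's UMIs (interquartile range 2.34% to 3.43%), place 10 of the 17 types, close to the 2.95% of COP and below the 4.27% of Oligodendrocytes. Neurons_mixed (17.7%) and GABA neurons (9.71%) had the highest medians and Microglia the lowest (1.46%). By fixed cuts, 42 OPC (5.49%) had under 1000 UMIs, 34 (4.44%) had more than 10% mitochondrial UMIs, and 13 had both. The first cut falls at no gap, with OPC at 977 UMIs below it and 1012 above it. At least 1000 UMIs were found in 723 of 765 OPC and in 29578 of all 35672 cells. At most 10% mitochondrial UMIs were found in 731 OPC and in 29404 of all cells. OPC thus had fewer such cells than the series as a whole, at place 9 of the 17 types for each cut. The 42 shallow cells had a median of 655 UMIs and 6.20% mitochondrial UMIs, and all 42 had a doublet score of 0. The doublet score, deposited with no tool or scale stated in the sources used, had a median of 1.42 in OPC against 0.593 in Oligodendrocytes and 2.39 in COP. These are descriptions with no test, since the cell types come from clusters of the same cells.

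**Figure D1:**
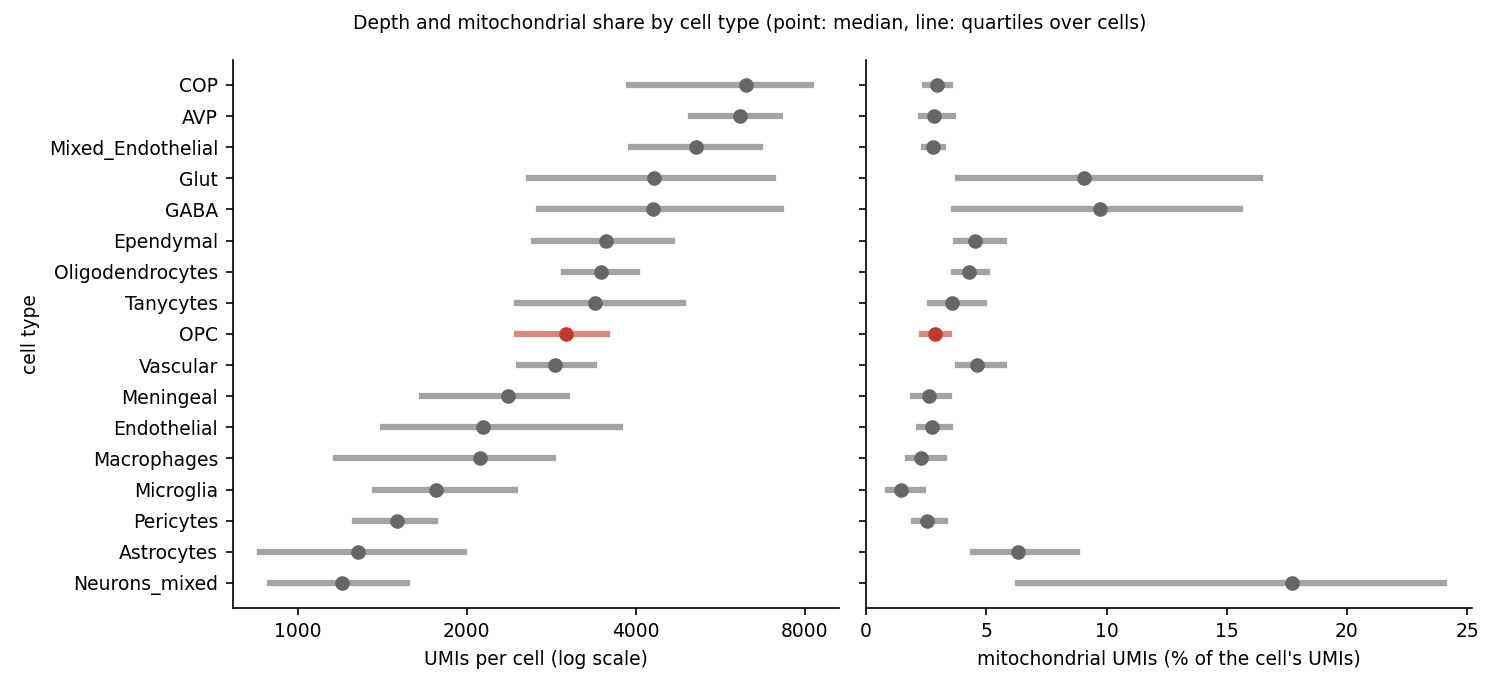
UMIs per cell (left, log scale) and mitochondrial UMIs in percent (right) for the 17 cell types, sorted by median UMIs. Points are medians over all cells, lines span the quartiles and OPC are in red. OPC lie in the middle for depth (3006 UMIs), and below Oligodendrocytes (4.27%) for mitochondrial UMIs (2.85%).

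OPC lay furthest from the rest of their lineage at the upper end of both cell cycle scores, and close to it at the centre. The median S score of OPC was 0.00942, against 0.00275 in Oligodendrocytes and -0.00753 in COP, and the median G2/M score was -0.0203, near the -0.0209 of Oligodendrocytes. The 95th percentile of the S score was 0.229 in OPC, 0.0781 in Oligodendrocytes and 0.0536 in COP. At the 99th percentile the S score was 0.455 in OPC against 0.111 and 0.0675. For the G2/M score the 99th percentiles were 0.316, 0.0827 and 0.0966. OPC ranked first of the 17 types for the mean, the median, the 99th percentile and the maximum of the S score, and for the 99th percentile and the maximum of the G2/M score. The mean S score of OPC was 0.0359, above Tanycytes (0.0128) and Endothelial cells (0.0103), and was lowest in Neurons_mixed (-0.0102). The mean G2/M score of OPC, -0.00487, was below that of Ependymal cells (0.0519) and Tanycytes (0.0177), and Microglia had the lowest (-0.0262).

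To count the cells in this upper end, the 99th percentile of each score over all Oligodendrocytes was taken as a threshold: 0.111 for S and 0.0827 for G2/M. By construction about 1 in 100 Oligodendrocytes lies above each. Of the 765 OPC, 109 (14.2%, exact Clopper-Pearson 95% interval 11.8% to 16.9%) lay above the S threshold, 31 (4.05%, 2.77% to 5.70%) above the G2/M threshold, 122 (15.9%, 13.4% to 18.7%) above either and 18 (2.35%) above both. The cells nearest the S threshold had 0.112 and 0.111, and those nearest the G2/M threshold 0.0833 and 0.0815. Within 0.01 of a threshold lay 23 OPC for S and 17 for G2/M. Intervals here cover counting error only, and a score above a threshold is not by itself evidence that a cell was dividing.

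OPC had the highest share of the 17 types for S and the third highest for G2/M. Above the S threshold were 2.47% of Tanycytes and 2.44% of Pericytes, the next types in order, 1.01% of Oligodendrocytes and 0 of 115 COP. That 0 has an exact Clopper-Pearson 95% upper bound of 3.16%, and 3 cells, the limit used for counts of 0 elsewhere, would be 2.61%. For G2/M, Ependymal cells had 25.4% and Tanycytes 8.47% above the threshold, both more than OPC, and COP had 2.61%. The scores of Ependymal cells lay higher as a whole, with a median G2/M score of 0.0520 and a maximum of 0.232, whereas most OPC lay low and a few lay very high. Counting either score, the order was Ependymal cells (26.5%), OPC (15.9%) and Tanycytes (10.5%), and Meningeal cells had the lowest share, 0.763%.

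**Figure D2:**
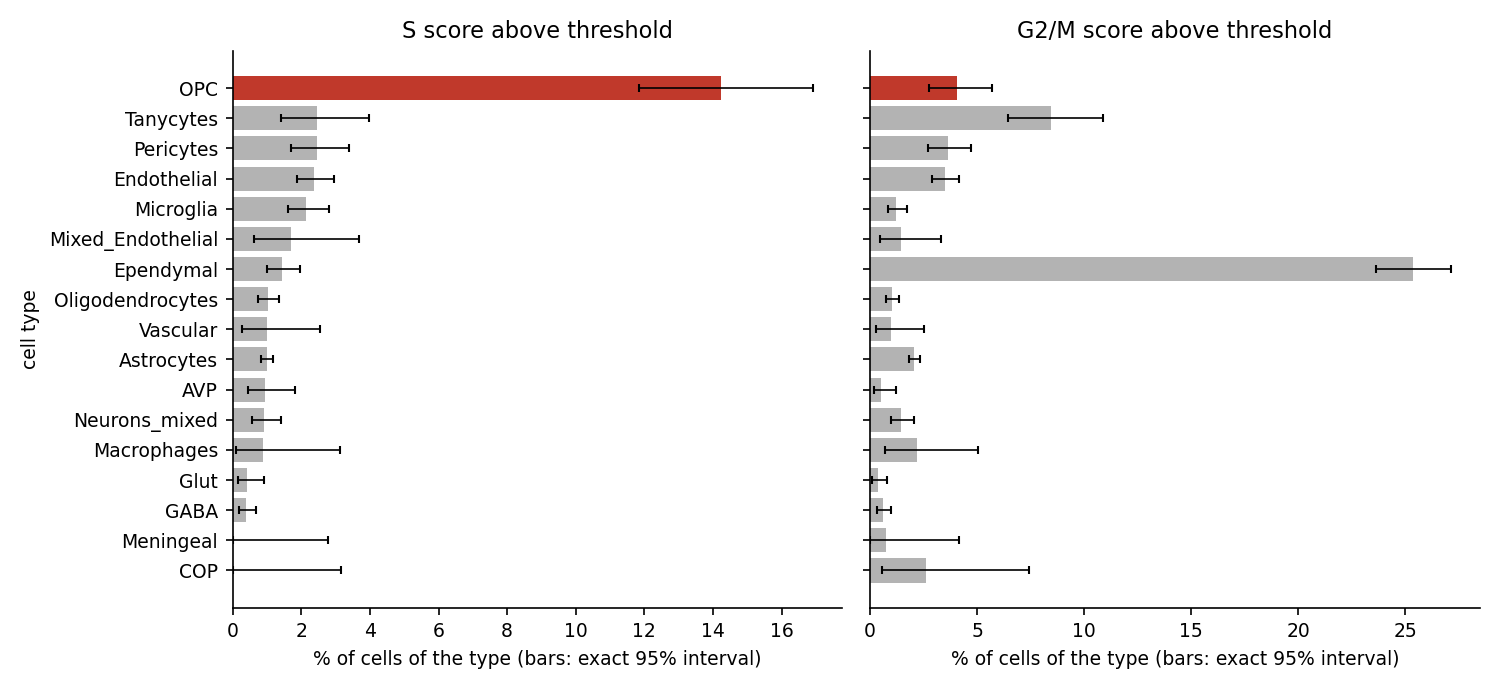
Percentage of cells of each of the 17 types whose S score (left) or G2/M score (right) exceeded the 99th percentile of Oligodendrocytes, with exact 95% intervals for counting error and OPC in red. OPC have the highest bar for S (14.2%) and the third for G2/M (4.05%), where Ependymal cells reach 25.4%.

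The highest scores of the series were held mostly by OPC and Microglia, the immune cells of the brain. Of the 71 cells with an S score over 0.2 in all 17 types, 47 (66.2%) were OPC, and 7 other types held the remaining 24, of which 14 were Microglia. Of the 21 cells with a G2/M score over 0.5, 8 (38.1%) were OPC, 11 were Microglia, 1 was in Neurons_mixed and 1 was a Pericyte. The highest S score (0.821) and the highest G2/M score (1.61) of all 35672 cells both belonged to OPC, ahead of Microglia with 0.749 and 1.31. None of the 4435 Oligodendrocytes had an S score over 0.2, which allows a share of up to 0.0676%.

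The 8 OPC with a G2/M score over 0.5 were set off by that fixed cut. The lowest of the 8 had 0.517 and the next OPC below them 0.203. A wider gap lay within the 8, between 0.914 and 0.517. All 8 also lay above the S threshold, with S scores of 0.134 to 0.821. They came from 6 libraries: 2 each from male baseline ARS and male CMS ARS, and 1 each from female baseline ARS, female CMS ARS and the male controls of the baseline and the CMS cohort. Their median was 4869.5 UMIs and 2558 genes, against 3006 and 1812 in all OPC, and their mitochondrial median was 2.55%, with no cell above 3.01%. Their median doublet score was 2.24, above the 1.42 of all OPC, and 1 of the 8 had a score of 0. The part that depth and the doublet score play in these high scores was not tested.

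**Figure D3:**
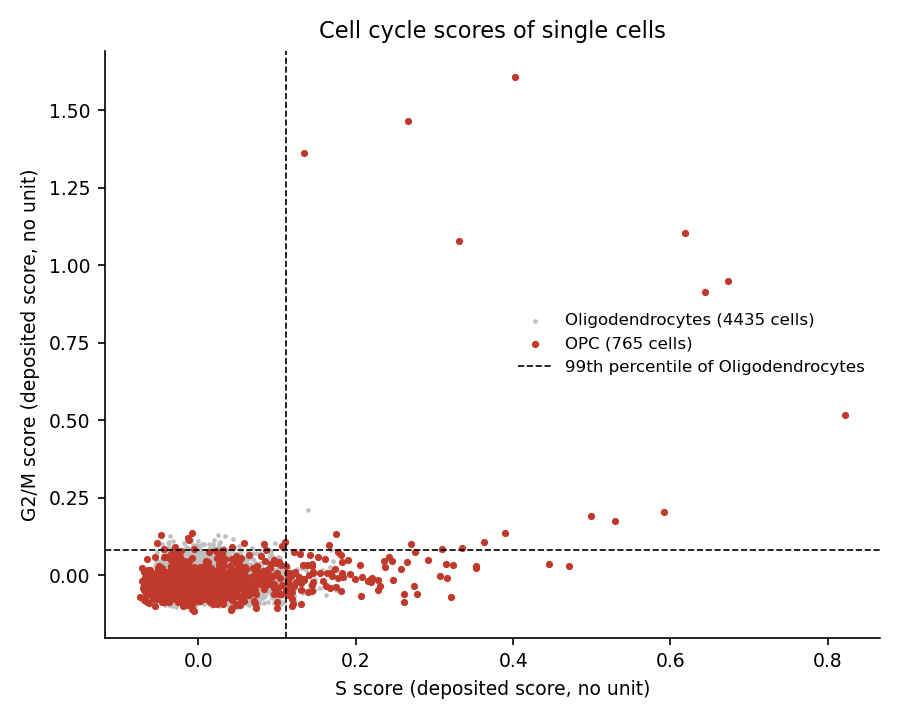
S score (x axis) and G2/M score (y axis), both without a unit, of the 765 OPC (red) and the 4435 Oligodendrocytes (grey), each point being a cell and dashed lines the 2 thresholds (0.111 and 0.0827). A band of OPC extends to the right past the S threshold at low G2/M scores, and 8 OPC lie above 0.5 on the G2/M axis, where no Oligodendrocyte lies.

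Between these 8 cells and the bulk lay a larger set that was high in S alone. It held 91 OPC (11.9% of OPC) with a median S score of 0.168 and a median G2/M score of -0.00403, whereas only 13 OPC (1.70%) were high in G2/M alone, with a median of 0.104 and a maximum of 0.135. The 18 OPC above both thresholds had the most UMIs, with a median of 4078.5. Cells high in S alone had a median of 3250 UMIs, cells high in G2/M alone 2543, and the 643 OPC above neither 2947. Mitochondrial medians of these sets ranged from 2.72% to 2.89%. Across the 765 OPC the S and G2/M scores had a Spearman correlation of 0.17 (Pearson 0.46, over cells that share libraries and depth), and 0.064 to 0.27 within single libraries, against -0.0024 in Oligodendrocytes.

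The share of OPC above the S threshold was larger in deeper cells. With OPC split into 5 equal groups of 153 by UMIs, the share above the S threshold was 9.15%, 9.15%, 13.7%, 15.7% and 23.5% from the shallowest to the deepest group. Oligodendrocytes in the same 5 ranges of UMIs had 0.728%, 0.802%, 0.574%, 1.35% and 1.23%. OPC thus had a higher S share than Oligodendrocytes in each range, and the share in OPC was higher at the deep end. The G2/M share of OPC showed no such steps, with 3.92%, 2.61%, 2.61%, 1.96% and 9.15%, and was high in the deepest group alone. Restricted to cells with 1605 to 4188 UMIs (the 10th to 90th percentile of OPC), 12.9% of 611 OPC and 0.992% of 3227 Oligodendrocytes lay above the S threshold. Next to OPC in that range stood Tanycytes with 3.31% of 362 cells.

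By the simple phase rule (the larger score names the phase if it is above 0) 50.2% of OPC would be S and 16.9% G2/M, but 46.5% of Oligodendrocytes, which no longer divide, would be S too, and 21.1% G2/M. That rule therefore does not separate OPC from Oligodendrocytes, and no cycling is read from it.

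The upper end of the S score was present in each library. The share of OPC above the S threshold was 13.6% in female baseline control, 12.99% in female baseline ARS, 21.7% in male baseline control and 13.6% in male baseline ARS. In the CMS cohort it was 12.5% in female control, 15.8% in female CMS ARS, 13.8% in male control and 11.1% in male CMS ARS. OPC ranked first for this share in all 8 libraries, among the 16 or 17 types with at least 10 cells there, and the next type reached at most 4.65%. Male baseline control was the high library and the other 7 lay close together.

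Counting either score, the shares were 14.6% (female baseline control), 14.3% (female baseline ARS), 25.3% (male baseline control, exact 95% interval 16.4% to 36.0%) and 19.3% (male baseline ARS). The CMS cohort had 13.5% (female control), 16.7% (female CMS ARS), 14.9% (male control) and 11.1% (male CMS ARS, interval 6.05% to 18.3%). The 2 male baseline libraries were the highest, with 8 and 9 OPC above the G2/M threshold against 1 to 3 in the other 6. Controls averaged 17.1% ± 5.51 (SD, n = 4 libraries) and stressed libraries 15.3% ± 3.49, and the groups overlapped. Stressed libraries differed from their matched controls by -1.74 percentage points on average, lower in 3 of 4 pairs (exact two-sided sign-flip permutation test over 4 pairs, p = 0.375). Females averaged 14.8% ± 1.34 and males 17.7% ± 6.09, a difference of -2.90 points, lower in 3 of 4 pairs (exact permutation p = 0.5). The CMS cohort averaged 14.1% ± 2.35 and the baseline cohort 18.4% ± 5.17, a difference of -4.30 points, lower in 3 of 4 pairs (exact permutation p = 0.375). The size of the cohort difference varied with the threshold and the cells kept, from -0.640 points with a score over 0.2 to -15.4 points among the 133 OPC with a doublet score of at most 1, below 0 under each of the 20 alternatives run. With 4 pairs this test cannot give a p below 0.13, and over the 9 such tests made here the adjusted p was 0.562 for each of these 3.

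**Figure D4:**
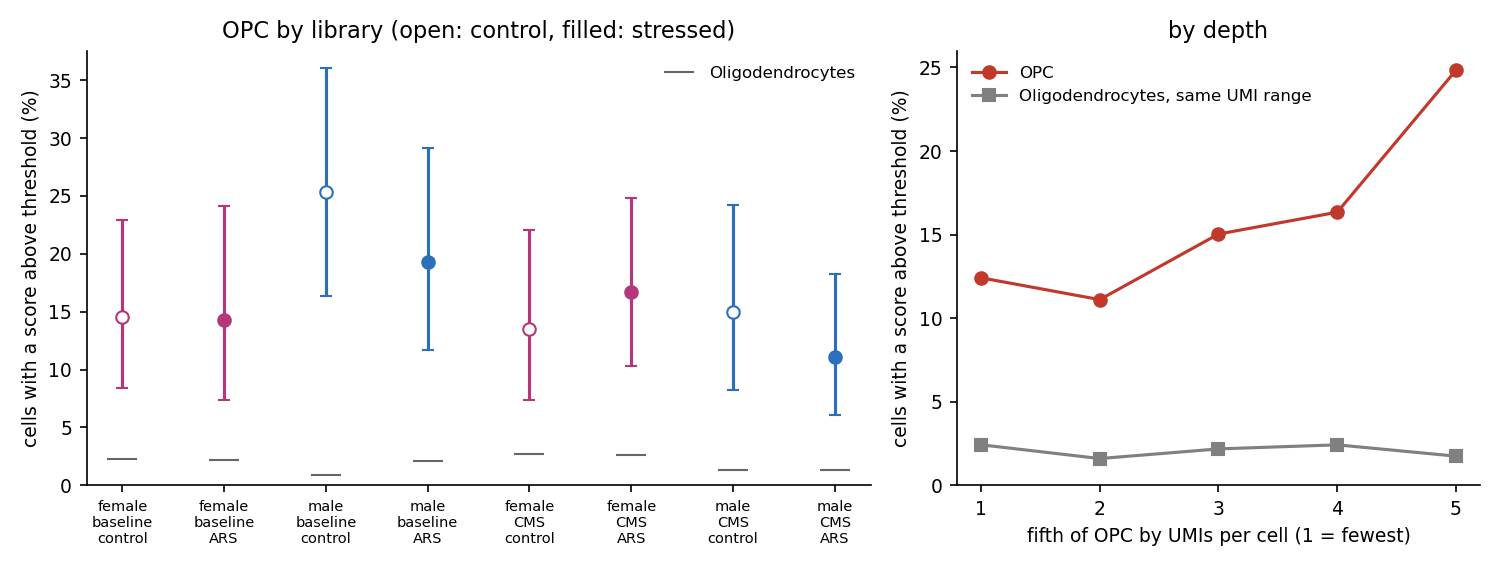
Percentage of OPC with either score above its threshold, by library (left, points with exact 95% intervals, open for control and filled for stressed, grey dashes for Oligodendrocytes of the same library) and by 5 equal groups of UMIs per cell (right). Male baseline control is the highest library (25.3%), OPC lie above Oligodendrocytes in all 8 libraries, and the deepest group of OPC has the largest share (24.8%).

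The 8 OPC with a G2/M score over 0.5 weighed on the average G2/M score. The mean G2/M score of OPC was -0.0145, 0.00603, -0.0194 and -0.0160 in the female libraries (baseline control, baseline ARS, CMS control, CMS ARS) and 0.00853, 0.0120, -0.00716 and -0.00131 in the male libraries in the same order. The female library was the lower one in 4 of 4 pairs, although the ranges overlapped. Fitted with limma over 16 types, the difference was -0.0140 (SE 0.0032, adjusted p = 0.0281), in a comparison that called 25% of types (4 of 16, the other 3 higher in females). Without the 8 OPC over 0.5 the means were -0.0174 ± 0.00312 (SD, n = 4) in females and -0.0152 ± 0.00682 in males, and the difference was -0.00215 (limma adjusted p = 0.450), an alternative chosen after seeing the data. With library medians in place of means it was 0.000520 (limma adjusted p = 0.813). Leaving out any 1 of 6 libraries also ended the call (limma adjusted p of 0.0571 to 0.0992), and it held only without female baseline ARS or without male CMS ARS. Between cohorts the mean G2/M score differed by -0.0140 (SE 0.0032, limma adjusted p = 0.0833), lower in CMS in 4 of 4 pairs. Limma called 0% of types there, and the 1 type at an unadjusted limma p under 0.05 was OPC. Without female baseline control that cohort difference was -0.0171 and passed (limma adjusted p = 0.00952). Without the 8 cells it was -0.00807, still lower in CMS in 4 of 4 pairs (limma adjusted p = 0.0760), and with library medians -0.00271 (limma adjusted p = 0.5001). Stressed libraries were higher in 4 of 4 pairs by 0.00829 on average (SE 0.0032, limma adjusted p = 0.683). Limma called 0% of types for stress, and OPC were again the 1 type at an unadjusted limma p under 0.05. Without the 8 cells stressed libraries were lower in 4 of 4 pairs, by -0.00278 on average.

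The mean S score of OPC ranged from 0.0198 (female CMS control) to 0.0527 (male baseline control). It averaged 0.0297 ± 0.00881 in the CMS cohort and 0.0430 ± 0.00649 in the baseline cohort (SD, n = 4 libraries each), a difference of -0.0134 (SE 0.0056) that did not pass (limma adjusted p = 0.238, 6.25% of types called). It passed only without female CMS ARS (-0.0192, limma adjusted p = 0.0259). For female against male the difference was -0.00205 (limma adjusted p = 0.895) and for stressed against control 0.00172 (limma adjusted p = 0.799), each with 0% of types called. With OPC in 16 types fitted, 0 types were at an unadjusted p under 0.05 for sex and 1 for stress.

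OPC made up a similar, small share of most libraries. Of all cells they were 1.85% in female baseline control, 1.33% in female baseline ARS, 2.25% in male baseline control and 2.30% in male baseline ARS. In the CMS cohort they were 2.12% in female control, 2.29% in female CMS ARS, 2.30% in male control and 3.32% in male CMS ARS. The lowest was female baseline ARS (exact 95% interval 1.05% to 1.66%) and the highest male CMS ARS (2.75% to 3.97%), and the other 6 lay between 1.85% and 2.30%. A share depends on all the cells captured, so fewer OPC and more cells of other types cannot be told apart from it.

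The OPC share was not shown to differ with stress. It was 2.13% ± 0.2001 in controls and 2.31% ± 0.812 in stressed libraries (SD, n = 4 each), with a log2 fold of 0.05 (SE 0.25, 95% interval -0.44 to 0.54, edgeR quasi-likelihood adjusted p = 0.944). It was higher after stress in 3 of 4 pairs, with ratios of 0.719 to 1.44. In this comparison 0% of the 17 types were called by edgeR and 0 by DESeq2, and 0 had an unadjusted p under 0.05 in edgeR. The effect of stress was not shown to differ between the sexes (log2 -0.45, SE 0.51, edgeR adjusted p = 0.871) or the cohorts (0.53, SE 0.54, edgeR adjusted p = 0.918). For these interactions 0% of types were called by edgeR and 0 by DESeq2, and 2 types (by sex) and 1 type (by cohort) had an unadjusted p under 0.05 in edgeR.

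By sex, the OPC share was 1.90% ± 0.418 in females and 2.54% ± 0.520 in males (SD, n = 4). The female library was lower in 4 of 4 pairs, with a log2 fold of -0.43 (SE 0.24, 95% interval -0.91 to 0.06) that did not pass (edgeR adjusted p = 0.728, where 5.88% of the 17 types were called). It stayed below 0 under the 18 alternatives run, from -0.78 among cells with a doublet score of at most 1 (edgeR adjusted p = 0.0604) to -0.28 with 1 library left out, and adjusted p ranged from 0.0604 to 0.999. By cohort it was 2.51% ± 0.548 in the CMS cohort and 1.93% ± 0.447 in the baseline cohort, higher in CMS in 4 of 4 pairs. The log2 fold of 0.38 (SE 0.24, 95% interval -0.10 to 0.87) did not pass with edgeR (adjusted p = 0.262, 17.6% of types called), while DESeq2, with its own size factors, gave 0.58 and passed (adjusted p = 0.0337). Among the 14023 cells with a doublet score of at most 1, which keeps 133 of the 765 OPC, the cohort difference was -0.09 (edgeR adjusted p = 0.903). The cohorts also differ in age and were labelled as separate experiments. In addition, the stressed CMS libraries had 21 days of chronic mild stress before restraint, and the stressed baseline libraries had restraint alone. The parts of age, experiment and chronic stress in a cohort difference cannot be told apart.

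**Figure D5:**
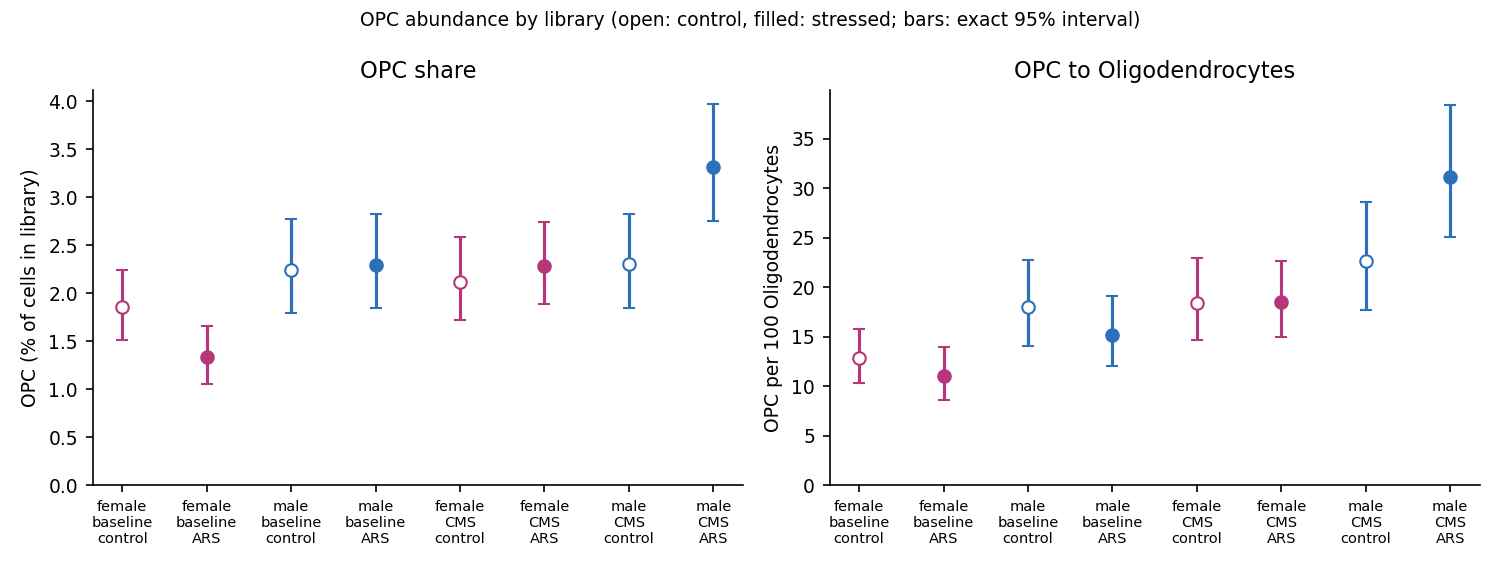
OPC as a percentage of all cells (left) and per 100 Oligodendrocytes (right) in the 8 libraries, females in magenta and males in blue, open for control and filled for stressed, with exact 95% intervals for counting error. Male CMS ARS is the highest in both (3.32% and 31.1) and female baseline ARS the lowest (1.33% and 11.1).

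Set against Oligodendrocytes, the differences by sex and by cohort were in the same direction and larger than those of the share. There were 17.2 OPC per 100 Oligodendrocytes over all cells. By library the ratio was 12.8 in female baseline control, 11.1 in female baseline ARS, 18.0 in male baseline control and 15.2 in male baseline ARS. In the CMS cohort it was 18.4 in female control, 18.5 in female CMS ARS, 22.7 in male control and 31.1 in male CMS ARS. Each CMS library lay above each baseline library, by a narrow margin between female CMS control (18.4) and male baseline control (18.0).

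The CMS cohort had 22.7 ± 5.96 OPC per 100 Oligodendrocytes and the baseline cohort 14.3 ± 3.01 (SD, n = 4 libraries each). The mean log2 difference was 0.66, or 1.58-fold, at the smallest p that 4 pairs allow (exact two-sided sign-flip permutation p = 0.13, adjusted p = 0.375 over 9 tests). The ratio was higher in the CMS cohort in 4 of 4 pairs. Folds were 1.44 in female controls, 1.26 in male controls, 1.67 in stressed females and 2.04 in stressed males. Whether these folds differ by exposure was not tested. Oligodendrocytes were 11.2% ± 0.970 of cells in the CMS cohort and 13.5% ± 1.48 in the baseline cohort, lower in 3 of 4 pairs, which did not pass (log2 fold -0.28, edgeR adjusted p = 0.380). Neither side of the ratio thus passed the edgeR test as a share of cells, although the OPC share passed with DESeq2. The median UMIs over all cells of a library were 1845 to 2221 in the CMS cohort and 2098 to 2565 in the baseline cohort, and their part in the ratio was not tested. Among cells with a doublet score of at most 1 the log2 difference was 0.12 (exact permutation p = 1). That filter keeps 133 of 765 OPC but 3411 of 4435 Oligodendrocytes. Of the OPC kept, 127 had a score of 0, with a median of 1409 UMIs against 3006 in all OPC.

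Females had 15.2 ± 3.83 OPC per 100 Oligodendrocytes and males 21.8 ± 6.96. The mean log2 difference was -0.50, or 0.707-fold, lower in 4 of 4 pairs with folds of 0.595 to 0.813 (exact permutation p = 0.13, adjusted p = 0.375). Among cells with a doublet score of at most 1 it was -0.82. For stress the ratio was 18.0 ± 4.03 in controls and 19.0 ± 8.65 in stressed libraries, with a mean log2 difference of 0.0022 (exact permutation p = 0.875). The 2 baseline pairs were lower after ARS (0.863-fold and 0.846-fold) and the 2 CMS pairs were not (1.004-fold in females and 1.37-fold in males).

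COP, the stage after OPC, were few, with 6 to 28 cells per library. Per 100 OPC there were 12.6 COP in female baseline control, 36.4 in female baseline ARS, 20.5 in male baseline control and 19.3 in male baseline ARS. In the CMS cohort there were 11.5 in female control, 13.2 in female CMS ARS, 6.90 in male control and 6.84 in male CMS ARS. The CMS library was the lower one in 4 of 4 pairs, with a mean log2 difference of -1.17, or 0.445-fold (exact permutation p = 0.13, adjusted p = 0.375). The difference was smallest in female controls (0.908-fold), where the 2 counts were 11 and 13 COP. For female against male the log2 difference was 0.47 (exact permutation p = 0.25) and for stressed against control 0.41 (exact permutation p = 0.5), the latter with 2.88-fold in the female baseline pair and 0.03 on the log2 scale without that pair. The comparison of COP with OPC was added after the data were seen.

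In the main tests, on library medians, neither the depth nor the mitochondrial share of OPC passed between groups. Median UMIs per OPC were 2791, 3188, 2913 and 2827.5 in the female libraries (baseline control, baseline ARS, CMS control, CMS ARS) and 2811, 3200.5, 3848 and 3047 in the male libraries in the same order. Male CMS control was the deep library. On the log2 scale the limma difference was -0.00015 for stress (SE 0.11, adjusted p = 0.999, 0% of types called), -0.13 for female against male (adjusted p = 0.497, 0% called) and 0.07 for the cohorts (adjusted p = 0.667, 18.8% called). Relative to each library's median over all cells the cohort difference was 0.26 (limma adjusted p = 0.159). For stress and for sex 1 type each was at an unadjusted p under 0.05. Detected genes followed, with limma adjusted p of 0.973 (0% of types called), 0.459 (6.25%) and 0.606 (25%).

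The mitochondrial median of OPC was 2.67%, 2.94%, 2.75% and 2.63% in the female libraries and 2.96%, 3.08%, 2.89% and 2.88% in the male libraries, in the same order. Females averaged 2.75% ± 0.137 and males 2.95% ± 0.0909 (SD, n = 4 libraries each), lower in 4 of 4 pairs by 0.136 to 0.286 points, with a mean difference of -0.20 points (SE 0.079, limma adjusted p = 0.367, 0% of types called and 1 at an unadjusted p under 0.05). The cohort difference was -0.12 points (limma adjusted p = 0.284, 18.8% called). Relative to each library's median over all cells it was -0.38 and passed (limma adjusted p = 0.0221), and with library means it was -0.49 and did not (limma adjusted p = 0.192). For stress it was 0.06 points (limma adjusted p = 0.673, 0% called). Doublet scores of OPC differed by 0.11 for female against male, higher in females in 4 of 4 pairs (limma adjusted p = 0.346), by 0.0095 for stress (limma adjusted p = 0.949) and by -0.020 for the cohorts (limma adjusted p = 0.811), each with 0% of types called and with 2, 1 and 3 at an unadjusted p under 0.05.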

How the data were processed

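Cells of the dissected paraventricular nucleus were dissociated with papain and made into 10x Genomics 3' v2 libraries, per the labels' protocols. The submitters' processing notes name Cell Ranger 3.0.2 and 3.1.0, the mm10 build and Seurat 3.1.3. The sources used do not state the filters, the doublet tool or the cell cycle gene lists. Each line of the deposited table is a cell, with cell type and cluster as annotated by the authors, and its sex, cohort and condition. The authors deposited UMIs and genes as whole counts. They deposited the mitochondrial share as a fraction, which times the cell's UMIs was whole to within 1e-06 throughout, and it was converted to percent. The authors deposited the doublet, S and G2/M values as scores, with no unit. Cells were neither removed nor renamed, no further doublet removal was done, and gene expression was not analysed here.

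The members and lists were chosen with earlier results of these data known. Cell types named are the lineage (OPC, COP, Oligodendrocytes) and, for the S score, the G2/M score, the share above either threshold, UMIs and mitochondrial percent, the 2 types outside the lineage with the highest values and the 1 with the lowest; types named for single high cells, for the S share in a UMI range or as next in order were chosen with those values in view. Cell numbers per type were tested with edgeR 4.0.16 (quasi-likelihood F test, no abundance trend, library size all cells, sex, cohort and exposure as terms) in R 4.3.3 over 17 types with at least 80 cells. Library medians of UMIs and genes (log2) and of mitochondrial percent, and score means, went into limma 3.58.1 over 16 types, each with 10 or more cells per library. Both edgeR and limma estimate the variance partly from all types fitted. Their standard errors and p-values therefore do not rest on the spread of OPC alone. Benjamini-Hochberg adjustment ran over the types of a comparison, and a call needs an adjusted p under 0.05. Ratios and upper-tail shares were compared by the two-sided exact permutation of signs over 4 matched pairs (smallest p 0.125), adjusted over 9 tests. A pair holds libraries matched on the other 2 factors. Alternatives were DESeq2 1.42.0, TMM factors, other denominators, thresholds and filters on cells, and leaving out single libraries. Exact intervals came from scipy 1.17.1. The edgeR and limma tests were checked on simulated data with large known changes. Whether they would find differences as small as those reported here was not simulated. The sign-flip test was checked only on a few sets of values with known answers.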

Additional observations from a re-analysis of the deposited data

Results flagged for a closer look

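In all, 10 measures of OPC were examined in each group of 4 libraries that share a sex, a cohort or an exposure, 60 groups in all, for a library far from the other 3. In 9 groups the gap to the nearest library took up nearly the whole range. Chance alone gives about 1 in 20 groups, or 5%, where groups are independent. The 60 groups reuse the same 8 libraries and related measures and mix the other 2 factors. The 5% therefore does not apply directly, and nothing is read from the number flagged. Male baseline control had an upper-tail share of 25.3% against 13.5% to 14.9% in the other controls, and a mean S score of 0.0527 against 0.0391 to 0.0406 in the rest of the baseline cohort. Male CMS control had a median of 3848 UMIs per OPC against 2791 to 2913 in the other controls, and a median of 2201 genes against 1716 to 1782 in the rest of the CMS cohort. Male CMS ARS had an OPC share of 3.32%, against 2.25% to 2.30% in the other male libraries and 2.12% to 2.30% in the other CMS libraries, and the lowest mean S score of the stressed libraries, 0.0280 against 0.0391 to 0.0412. Female CMS control had the lowest mean S score of the female libraries, 0.0198 against 0.0398 to 0.0412. Female baseline ARS had 36.4 COP per 100 OPC, against 11.5 to 13.2 in the other female libraries.

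In 6 of 30 contrasts both pairs of one group moved one way and both pairs of the other group the opposite way; the differences themselves were not tested. These measures are not independent (UMIs and genes per cell go together), and nothing is read from their number. After stress, COP per 100 OPC moved by a mean log2 difference of 0.86 in females and -0.05 in males (female minus male 0.91). The female pairs were 2.88-fold (baseline) and 1.15-fold (CMS). The male pairs, 0.943-fold (baseline) and 0.991-fold (CMS), hardly moved. The mean S score moved by 0.0111 in females and -0.00767 in males (female minus male 0.0188). By cohort, OPC per 100 Oligodendrocytes moved after stress by a mean log2 difference of 0.23 in the CMS cohort and -0.23 in the baseline cohort (CMS minus baseline 0.46). The CMS pairs were 1.004-fold in females, hardly a change, and 1.37-fold in males. The baseline pairs were 0.863-fold in females and 0.846-fold in males. Median UMIs per OPC moved by a log2 difference of -0.19 and 0.19 (CMS minus baseline -0.38), median genes by -0.18 and 0.13 (-0.31), and the median mitochondrial percent by -0.0693 and 0.193 points (-0.26).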

How the results depend on the processing

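Of 459 values under alternatives for 33 results, 398 kept the direction and the side of the threshold (or, for the share over all OPC, moved by less than the SD between libraries), and 13 results did so under each alternative run for them. In the other 61, 45 changed sign, 7 lost a call, 4 gained one and 5 moved; the cause was not tested. Except for the mean G2/M score by sex, none of the 45 sign changes involved a difference that passed in either setting. Of the 33 results, 9 rest on the permutation test over 4 pairs, which cannot reach a p under 0.05. For these 9 the side of the threshold was fixed, and only the direction could change. The 13 include, from these 9, the OPC to Oligodendrocytes ratio by sex and by cohort, the upper-tail share by cohort, and the COP to OPC ratio in each comparison. For the COP to OPC ratio the only alternatives run left out single libraries. Leaving out either library of a pair drops that pair, so both give these 9 results the same value.

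The mean G2/M score for female against male was 0.000520 with library medians, -0.00215 without the 8 OPC over 0.5 (chosen after seeing the data) and -0.0169 to -0.0108 with single libraries left out; for stress it was -0.00535 with medians and -0.00278 without the 8 cells; for the cohorts it was -0.0171 to -0.0110 with single libraries left out. The mean S score for female against male was 0.00512 with medians, 0.00177 without the 8 cells and -0.00789 to 0.00271 with single libraries left out; for stress it was -0.00387 without the 8 cells and -0.00411 to 0.00648 with libraries left out; for the cohorts it was -0.0192 to -0.00860. UMIs per cell (log2) for female against male were 0.0087 relative to the library's median (0.26 for the cohorts), and with libraries left out ranged from -0.0790 to 0.11 for stress and -0.0473 to 0.15 for the cohorts. Genes per cell for stress were 0.0023 with library means, and with libraries left out -0.0799 to 0.0641 for stress and -0.0363 to 0.11 for the cohorts. The mitochondrial difference between cohorts was -0.38 relative to the library and -0.49 with library means. Doublet scores ranged from -0.0079 to 0.0539 for stress and -0.0604 to 0.0246 for the cohorts with libraries left out.

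The OPC share between cohorts was 0.58 with DESeq2 and -0.0903 in cells with a doublet score of at most 1; for stress it was -0.0247 with TMM factors, -0.0103 in cells with at most 10% mitochondrial UMIs, -0.0180 without Astrocytes, and -0.10 to 0.21 with libraries left out. The log2 ratio of OPC to Oligodendrocytes for stress was -0.0068 with COP added to Oligodendrocytes, -0.0490 in cells with a doublet score of at most 1, -0.0520 in cells with at most 10% mitochondrial UMIs, and -0.15 to 0.0836 with libraries left out. The upper-tail share for female against male was 0.50 points with the 95th percentile; for stress it was 0.58 points with the 95th percentile, 0.14 with G2/M alone, 2.07 with the phase rule and 0.36 with a score over 0.2. Over all OPC the share was 23.9% with the 95th percentile, 4.05% for G2/M alone, 2.35% for both scores, 67.1% with the phase rule and 6.27% with a score over 0.2. The number of OPC limits these shares: with 3 cells as the limit, a count of 0 in a library's OPC allows up to 2.56% to 3.90%. The exact 95% upper bound is higher, at 3.77% for the 0 of 96 OPC above both thresholds in female CMS control, against 3.13% by 3 cells.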
